A study of Mus musculus with 8 samples.

Results

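PIWI-interacting RNAs (piRNAs) of 29 to 33 nt were examined in mature sperm of 8 mice. Members were all fragments that the deposited tables annotate as piRNA and nothing else, that match the mouse genome and that are 29 to 33 nt long. There were 212673 such sequences among 5724730 distinct fragments, and single mice held 36853 to 71172 of them. All mice were male, were 8 weeks old at surgery and had an AAV with a Cre-dependent hM3D(Gq)-mCherry, an excitatory receptor under the hSYN promoter, injected into the arcuate nucleus on both sides. The 4 activated mice were Agrp Cre/+ and the 4 control mice Agrp +/+, so that AgRP neurons, which drive feeding, could make the receptor only in the first group. In the study, the virus was checked 3 weeks after injection. All 8 mice received the receptor's ligand clozapine-N-oxide (CNO) at 1 mg/kg, with food removed 1 h before. Sperm was taken from the caudae epididymides 4 h after CNO. The study asked whether the AgRP neuron state of obesity, mimicked in this way, is followed by a change in the small RNA of sperm. No group without CNO or without virus is part of the comparison.

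piRNAs are small RNAs of the germline that guide PIWI proteins to transposon and other transcripts. In the mouse testis most are cut from long single-stranded precursors during meiosis. The 5′ end is set first and is mostly a U, read as T in sequencing, and the 3′ end is then trimmed back to the length that the PIWI protein covers, which is longer for MIWI (Piwil1) than for MILI (Piwil2). In the ping-pong cycle a PIWI protein cuts a transcript of the opposite strand opposite position 10 of its guide, so that the new piRNA overlaps the old one by 10 nt at the 5′ ends and tends to carry A at position 10.

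The sequences below are from the deposited tables and show the features that the results turn on, placed on GRCm38 (mm10) by exact match to GENCODE M21 transcripts. The first set shows a 3′ ladder, forms that share a 5′ end and differ by single bases at the 3′ end, from an exon of the lincRNA Gm49794 (plus strand, from chr17:27358068-27358096 for the shortest to chr17:27358068-27358098 for the longest). The capital marks the first base.
Gm49794, 29 nt: Taagtgctcaataaaaagtgagcagcgcc
Gm49794, 30 nt: Taagtgctcaataaaaagtgagcagcgcct
Gm49794, 31 nt: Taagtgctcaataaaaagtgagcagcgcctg

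The next set shows pairs from opposite strands whose 5′ ends overlap by 10 nt. Capitals mark the 10 overlapping bases. The first pair lies in Gm42811 (minus strand gene, biotype TEC; sense form at chr6:127809606-127809635, antisense form at chr6:127809626-127809654). The second lies in the lincRNA CT025671.4 (plus strand gene, sense form at chr17:66195389-66195418, antisense form at chr17:66195368-66195398). In these, the antisense form starts with T and the sense form has A at position 10. In the third, from the lincRNA Gm5878 (minus strand gene, sense form at chr6:85113018-85113046, antisense form at chr6:85113037-85113066), the strands are the other way round, with T first in the sense form.
Gm42811, sense: CTTTCTCCCAttgaaggaagaactgggacc
Gm42811, antisense: TGGGAGAAAGaacaatggtcacgcagcct
CT025671.4, sense: ACACAGTGCAttgagtagctagccttctgt
CT025671.4, antisense: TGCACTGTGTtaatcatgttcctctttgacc
Gm5878, sense: TCCTAGCTGTctgtagggatctccagacc
Gm5878, antisense: ACAGCTAGGAgtgtaaccttcacaggcact

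The last set holds abundant fragments with another first base, again in capitals. The Rmrp fragment (chr4:43493030-43493059, minus strand) matches the RNA component of RNase MRP and is the one that departs most from the rest in the comparison of groups. The others are the most abundant members of the lincRNAs Gm5878 (chr6:85113384-85113412, minus strand) and 1700001L05Rik (chr15:83356235-83356264, minus strand).
Rmrp, 30 nt: Agctcgctctgaaggcctgtttcctaggct
Gm5878, 29 nt: Atgaaatgaatgaggacctggtcctgtgg
1700001L05Rik, 30 nt: Gaggaaactgaagcttagggtagtcacagc

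Libraries held 9297271 to 23123740 reads, of which 115850 to 408430 were members, or 1.07% to 1.89%. The libraries fell into 2 sets by the share of reads annotated as mitochondrial rRNA, with 1.80% to 2.24% in activated 1 and 4 and control 2 and 4, and 7.11% to 8.35% in activated 2 and 3 and control 1 and 3. Marker miRNAs of testis and sperm summed to 21755 to 34978 reads per 1000000 of the library total (RPM) in activated and 18156 to 30572 in control mice, with all 9 detected (two-sided exact permutation p = 0.257). Control 4 stood apart in markers of other tissue. Its muscle and vessel miRNAs reached 36491 RPM against 255 to 445 in the other controls, and its epithelial miRNAs 19420 RPM against 1364 to 2733. Values without that library are given below for the summed level and for the named fragment that it moved most. The 4 erythrocyte miRNAs, all detected, ranged from 83.5 to 298 RPM in activated and from 235 to 976 RPM in control mice, with means of 145 and 601 RPM (exact permutation p = 0.0571). The 4 leukocyte miRNAs, also all detected, ranged from 398 to 862 and from 295 to 553 RPM (exact permutation p = 0.114). The part of other cells in the piRNA values was not tested.

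From 24 nt upward the most frequent length of genome-matched piRNA was 29 nt in all 8 mice. Mean levels were 6729 ± 1473 RPM at 29 nt, 5890 ± 1152 at 30 nt and 2437 ± 456 at 31 nt (SD, n = 8). They then fell to 600 ± 113 at 32 nt and 179 ± 33 at 33 nt, and almost nothing was read beyond 34 nt. The piRNA-annotated reads had a further peak of 7447 ± 1862 RPM at 22 nt, which is shorter than the range described here.

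**Figure D1:**
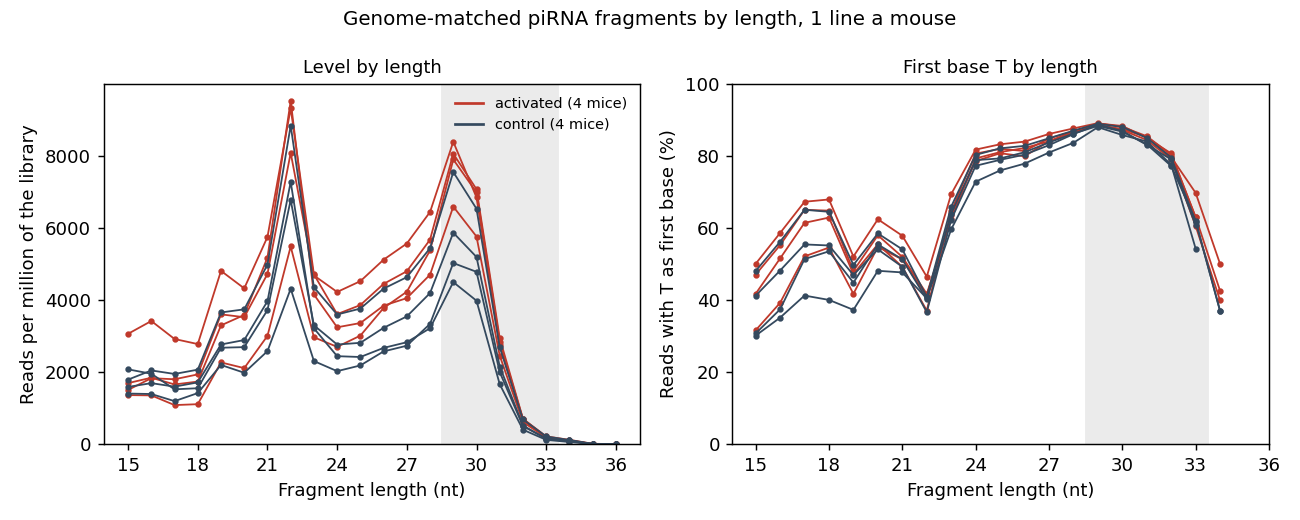
Genome-matched piRNA by fragment length (x axis, nt), with RPM on the left and the share of reads with T as first base on the right; each line is 1 mouse, red activated and dark blue control, and the grey band marks 29 to 33 nt. The share of T is highest at 29 nt, with 87.9% to 89.04% of reads, and drops to 54.3% to 69.7% at 33 nt.

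The first base set these fragments apart from others of their length. T opened 86.8% ± 0.67 of reads (SD, n = 8), with 5.10% A, 4.06% C and 3.90% G in the pooled reads. In genome-matched piRNA of 24 to 28 nt the share was 82.5% ± 1.79, and it was lower in 8 of 8 mice, by 2.75 to 6.75 percentage points (exact sign-flip permutation test, two-sided, p = 0.00781, the smallest that 8 mice allow). Genome-matched fragments of 29 to 33 nt with no annotation opened with T in 24.8% ± 1.32 of reads, 62.0 percentage points lower on average (same exact test, p = 0.00781). Fragments labelled piRNA at the same length but without a genome match had T first in only 25.6% ± 4.61 of reads, and G was their most frequent first base in all 8 mice, at 50.6% to 67.8%. Counted as distinct sequences rather than reads, T opened 63.8% ± 4.52 of these unmatched fragments, against 84.95% ± 0.36 of the members and 26.8% ± 1.79 of the unannotated ones. A at position 10 was found in 35.9% ± 0.35 of member reads, against 32.1% ± 0.56 at 24 to 28 nt and 32.7% ± 0.87 in unannotated fragments (both exact sign-flip tests p = 0.00781, members higher in 8 of 8 mice).

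The bias toward T weakened with length. It was 88.6% at 29 nt, 87.3% at 30 nt, 84.4% at 31 nt, 79.1% at 32 nt and 61.9% at 33 nt as means over 8 mice. At 33 nt A opened 21.9% of reads but only 9.68% of distinct sequences. One 33 nt fragment that starts with A and shares its bases 3 to 22 with fragments annotated as snRNA, the RNA of the splicing machinery, held 14.6 to 32.3 RPM, beside 122 to 217 RPM for all 33 nt members.

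The population was large and thinly read. Of all members, 60.0% were seen in 1 mouse only and held 15.6% of reads, whereas the 5489 members found in all 8 mice (2.58%) held 37.9%. The 10 most abundant of each mouse took 1.95% to 2.68% of its member reads. Over the 8 mice these top 10 lists named 20 different fragments, 16 of them with T first, and 3 fragments stood in all 8 lists. The most abundant fragment, of 29 nt, led in 6 of 8 mice with 58.8 to 105 RPM, and a 31 nt fragment came second with 43.1 to 94.5 RPM. Neither matched a GENCODE transcript exactly, and their places in the genome were not determined here.

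Fragments with the same first 24 bases were taken as a family, since they share the bases of their 5′ end. Some families pool sequences that also differ after base 24, as up to 30 forms occurred in a family. There were 144488 families. Of these, 32.8% had at least 2 forms of 29 to 33 nt, and those families held 81.2% of reads. The most frequent form was 29 nt in 49.6% of families, 30 nt in 35.2%, 31 nt in 12.0%, 32 nt in 2.55% and 33 nt in 0.580%. Most families, 55.1%, also had shorter forms of 24 to 28 nt.

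The 3′ ends of the largest families differed in kind. The family of most reads was nearly uniform, with 97.7% of its 10373 reads at 29 nt, and the second had 86.8% of 10192 reads at 31 nt. The third was spread, with 21.2% at 29 nt, 35.0% at 30 nt, 21.4% at 31 nt and 22.3% at 32 nt, and it had another 3210 reads at 24 to 28 nt. The fourth held 69.9% at 29 nt and 29.96% at 30 nt. The fifth was the Rmrp family, with A first, 75.0% of its 3931 reads at 30 nt, 22.3% at 31 nt and only 19 reads at 24 to 28 nt. The Gm49794 ladder printed above fell from 15.2 RPM at 29 nt to 10.1 at 30 nt and 3.54 at 31 nt as means over 8 mice.

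Most members matched no annotated transcript. An exact match in a GENCODE M21 transcript, on either strand, was found for 40877 members (19.2%), which held 13.1% of reads. Introns and the space between genes were not searched. Members placed in 1 gene on 1 strand were 16908 in the sense of protein-coding genes (648 RPM), 6098 in the sense of long noncoding genes (477 RPM) and 7107 antisense to a gene (397 RPM). The share of T was 88.4% in members without a transcript, 84.2% in antisense members, 77.2% in sense members of long noncoding genes, 75.1% in those of protein-coding genes and 55.4% in those of pseudogenes (means over 8 mice).

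The 4 host genes with most reads were lincRNAs. Gm49794 (chr17:27354111-27367492, plus strand) led with 1184 members, 93.5% of reads with T first and 115 RPM. Gm5878 (chr6:85111416-85126125, minus strand) had 630 members and 73.4 RPM, Gm21388 (chr3:34826669-34879283, plus strand) 791 members and 58.7 RPM, and 1700001L05Rik (chr15:83353847-83367282, minus strand) 696 members and 58.1 RPM. Among coding genes, Tbl2 (48.0 RPM) and Cbl (42.9 RPM), which encodes an E3 ubiquitin ligase, had 99.9% and 98.5% of these reads in the 3′ UTR. Nemp1, a nuclear envelope gene, had 68.8% there and 30.9% in its coding sequence (39.7 RPM), and Ago2, the Argonaute protein of RNA interference, had 98.7% of its 16.9 RPM in the 3′ UTR. In the coding gene 1700006A11Rik (502 members, 40.9 RPM) it was the other way round, with 83.7% of reads in the coding sequence and 16.01% in the 3′ UTR. Among the lincRNAs and coding genes just named, Tbl2 stood out by length. Only 41.4% of its reads were 29 or 30 nt, against 83.3% in Gm49794, and its leading fragment, at chr5:135160439-135160470, was the most abundant member of 32 nt, with 11.2 to 23.2 RPM.

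A few hosts lacked the T bias. Rmrp (chr4:43492783-43493063, minus strand; 8 members, 36.4 RPM) had none of its reads opening with T, and Smcp, which encodes the sperm mitochondria-associated cysteine-rich protein (103 members, 33.8 RPM), had 11.5%. Of the Smcp reads only 16.3% were 29 or 30 nt, and 93.0% lay in the 3′ UTR.

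**Figure D2:**
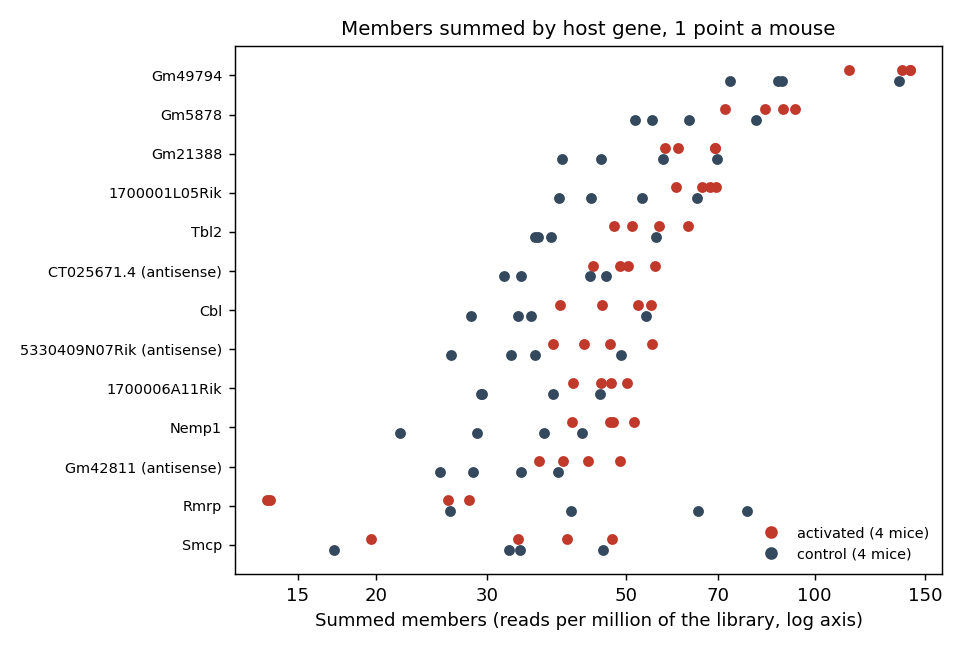
Members summed by host gene (rows, those above a mean of 30 RPM) in RPM on a log axis; each point is 1 mouse, red activated and dark blue control. For Gm49794, at the top in RPM, activated mice span 114 to 142 and control mice 73.2 to 136, and 3 of 4 activated mice lie above every control; Rmrp runs the other way, and the groups overlap in every host drawn.

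Opposite strands of the same genes gave the 10 nt overlap known from the ping-pong cycle more often than any other overlap from 1 to 29 nt. In 177 genes with members on both strands, 300 pairs of a sense and an antisense 5′ end overlapped by exactly 10 nt. The other 28 overlaps from 1 to 29 nt had 48 to 119 pairs, with a median of 65. The 10 nt pairs lay in 50 genes, and CT025671.4 alone held 64 of them. Without that gene there were 236 pairs at 10 nt, against a median of 51.5 and at most 92 at the other overlaps. These are counts over all 8 mice pooled, with no test.

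**Figure D3:**
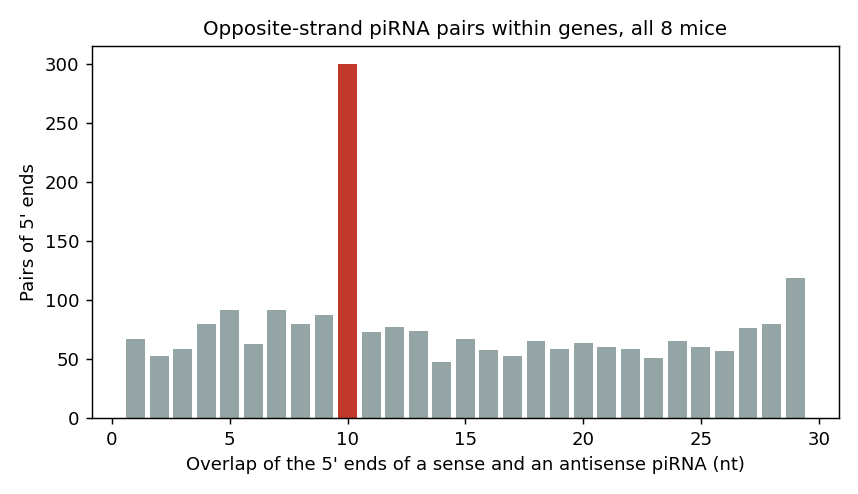
Pairs of 5′ ends of piRNAs from opposite strands of a gene (y axis, count) by the length of their overlap (x axis, nt), in all 8 mice. The bar at 10 nt, in red, reaches 300, and the next highest is 119 at 29 nt.

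The strands of such genes also differed in base composition. Both strands reached the count minimum of the test below in 6 genes outside chromosome 18. In 6 of these 6 the strand with fewer reads had the lower share of T at position 1 and the higher share of A at position 10. For CT025671.4 (chr17:66193352-66199820), the antisense strand had 44.5 RPM, 81.4% T first and 33.7% A at position 10, and the sense strand 11.1 RPM, 11.5% T and 93.7% A. For Gm42811 (chr6:127807951-127810718) the antisense strand had 36.9 RPM, 90.8% T and 21.3% A, and the sense strand 6.42 RPM, 7.07% T and 94.3% A. Stox1, Gm10505, Gm20789 and Spin1 had 8.29% to 40.2% T and 37.3% to 95.7% A on the minor strand. T at position 1 of one strand and A at position 10 of the other are 2 sides of the same base pair in a 10 nt overlap, so these shares are not independent of each other.

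The summed level of the 29 to 33 nt piRNAs was next compared between groups. It was 18948, 18840, 18638 and 15600 RPM in activated mice and 13871, 17663, 12461 and 10658 RPM in control mice. Activated mice 1 to 3 lay above every control, while activated 4 lay below control 2, so that the groups overlapped. The means were 18007 ± 1609.5 and 13663 ± 2973 RPM (SD, n = 4 per group), a ratio of 1.32, which did not pass the exact permutation test (two-sided, p = 0.0571, Benjamini-Hochberg adjusted p = 0.0857 over 6 such tests; the smallest p that 4 against 4 allow is 0.0286). The ratio was 1.22 among mice of low and 1.42 among mice of high mitochondrial rRNA share, and 1.23 without control 4 (exact permutation p = 0.0857). Leaving out control 2 gave 1.46 (p = 0.0286 by the same exact test, the smallest that design allows). In bulk RNA, more cells of a kind and more RNA per cell cannot be told apart, and RPM is a share of the library.

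Each length gave a ratio above 1. At 29 nt the means were 7729 ± 788 and 5730 ± 1334 RPM, a ratio of 1.35. It was 1.30 at 30 nt, 1.29 at 31 nt (all 3 with p = 0.0571, exact permutation tests), 1.28 at 32 nt (p = 0.0857, exact) and 1.21 at 33 nt (p = 0.143, exact). The ratio of 29 to 33 nt over 24 to 28 nt reads was 0.841 ± 0.103 in activated and 0.852 ± 0.082 in control mice (exact permutation p = 0.943).

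**Figure D4:**
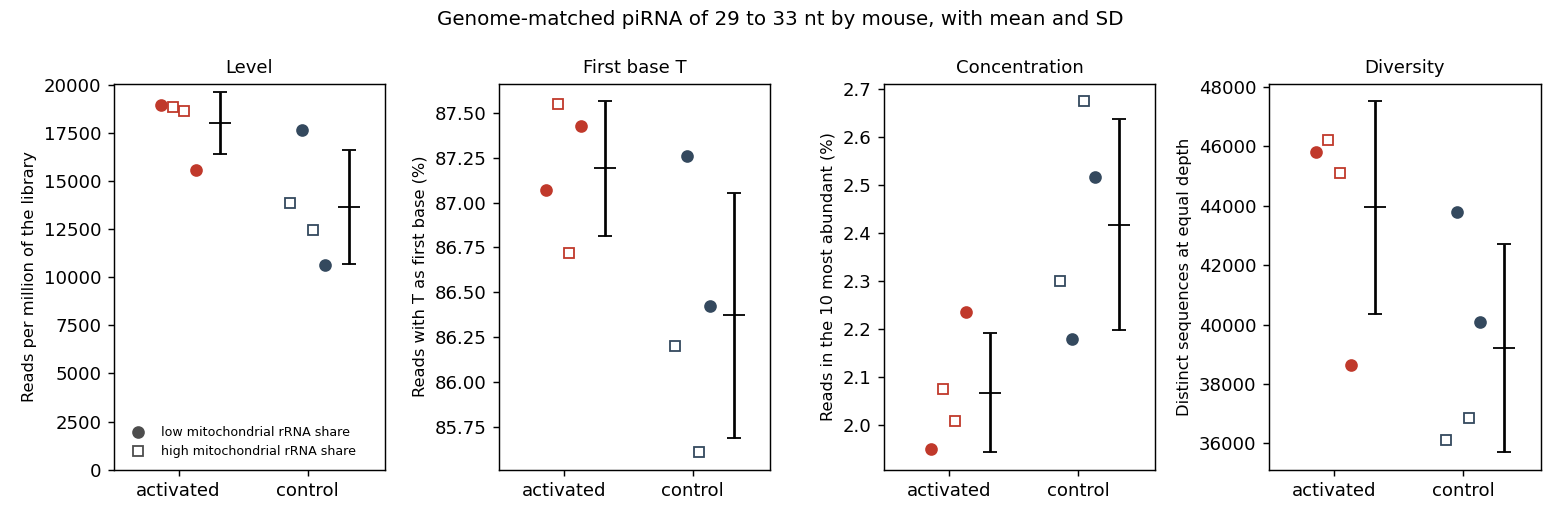
Values of the 29 to 33 nt piRNAs in each mouse, from left to right their level (RPM, axis from 0), the share of reads with T first, the share in the 10 most abundant fragments and the distinct sequences at equal depth (these 3 axes do not start at 0); circles are libraries of low and open squares of high mitochondrial rRNA share, and bars are mean and SD. The level spans 15600 to 18948 in activated and 10658 to 17663 in control mice, and the groups overlap in all 4 panels.

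First bases were close in both groups. T opened 87.1%, 87.5%, 86.7% and 87.4% of reads in activated and 86.2%, 87.3%, 85.6% and 86.4% in control mice, means of 87.2% ± 0.38 and 86.4% ± 0.68 (exact permutation p = 0.0857, adjusted p = 0.171 over 6 tests). The difference shrank to 87.7% ± 0.32 against 87.4% ± 0.47 (p = 0.343 by the same exact test) without the members that share sequence with structural RNA, which are described below. A at position 10 stood at 35.96% ± 0.37 and 35.9% ± 0.38 (exact permutation p = 0.83).

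The spread of reads over fragments was compared by 2 measures, and neither passed the test. The 10 most abundant fragments took 2.07% ± 0.12 of member reads against 2.42% ± 0.22 in control mice (exact permutation p = 0.0571). For the 100 most abundant the ratio was 0.901 (exact p = 0.0286). Leaving out single mice took the ratio for the 10 most abundant to 0.828 at the lowest (exact p = 0.0286). At an equal 115850 reads, 43948 ± 3577 distinct members would be seen in activated and 39214 ± 3511 in control mice (exact permutation p = 0.114). Within the libraries of low mitochondrial rRNA share the ratio of these numbers was 1.01, and within those of high share 1.25.

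Single fragments were tested where at least 50 reads were present in at least 4 mice. That left 249 members, 0.117% of all, with 11.1% of member reads. The fourth highest count was 50 just inside this limit and 49 just outside it. They comprised 93 of 29 nt, 106 of 30 nt, 35 of 31 nt, 9 of 32 nt and 6 of 33 nt, and 217 of them (87.1%) opened with T. Their means ran from 2.38 to 86.3 counts per 1000000 (CPM, scaled by TMM).

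With edgeR (quasi-likelihood test, adjusted p under 0.05 and log2 fold change beyond 1 over all 12077 fragments), 0 members were called higher and 0 lower. Of all fragments, 0.431% were called higher and 0% lower. Without adjustment, p was under 0.05 for 15 members that were higher (6.02%) and 3 that were lower (1.2%), beside 3.46% higher and 3.76% lower of all fragments. DESeq2 also called 0, against 1.61% higher and 0.373% lower overall. On the TMM scale groups did not overlap for 15 members that were higher (6.02%, against 2.42% of all fragments) and for 2 that were lower (0.803%, against 1.95%). The log2 fold change was positive for 216 of 249 members (86.7%) with a median of 0.33, against 56.3% and 0.08 over all fragments. Members share the same libraries, so these signs are not independent.

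Most members of each length had a positive fold change. It was positive for 87 of 93 members at 29 nt (median 0.43), 89 of 106 at 30 nt (median 0.32), 28 of 35 at 31 nt (median 0.20), 7 of 9 at 32 nt (median 0.24) and 5 of 6 at 33 nt (median 0.32), and the lengths were not compared by a test. Of the 249 tested members, 9 shared their bases 3 to 22 with fragments that the tables annotate as rRNA (1), tRNA (3), snRNA (2), snoRNA (1) or ribozyme (2, from Rmrp), a class formed after the values were seen. Of these 9, 8 had a negative fold change, including all 4 beyond a log2 fold change of −1, of which the 31 nt Rmrp form moved most without control 4, with values given with that form. Of the other 240, 215 were positive and their lowest value was −0.27.

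**Figure D5:**
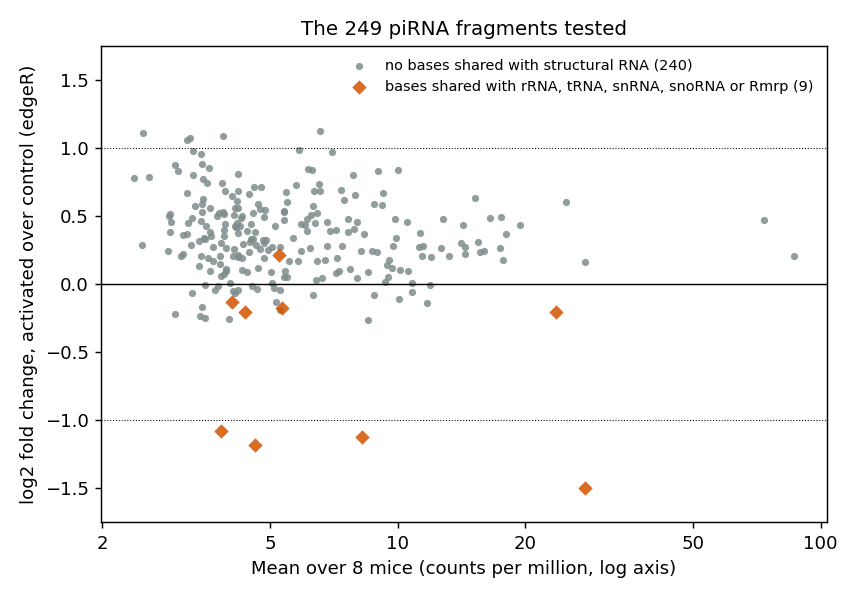
Log2 fold change of activated over control (y axis, edgeR) against the mean over 8 mice (x axis, CPM, log scale) for the 249 fragments tested; grey circles share no bases with structural RNA and orange diamonds do, and dotted lines mark a log2 fold change of 1 and −1. Of the 9 diamonds, 8 lie below 0 and 4 below −1, and none of the grey points lies below −0.27.

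Of the lower fragments, that of smallest p was the Rmrp fragment printed above. It had 18.9, 10.9, 18.97 and 9.46 RPM in activated and 34.3, 20.2, 65.5 and 42.1 RPM in control mice. Every activated value lay below every control value. Its log2 fold change was −1.50 ± 0.44 (SE), with an edgeR adjusted p of 0.354 and a DESeq2 adjusted p of 0.079. The 31 nt form of the same family had 8.39, 2.46, 6.78 and 3.19 RPM in activated and 5.72, 4.97, 9.57 and 21.05 RPM in control mice, a log2 fold change of −1.12 ± 0.65 (edgeR adjusted p = 0.863) with overlapping groups. Its ratio of mean RPM was 0.504 with all mice and 0.770 without control 4, which had the highest value, whereas that of the 30 nt form was 0.359 and 0.364. Fragments annotated as ribozyme, of any length, summed to 8.99 ± 1.64 RPM in activated and 10.3 ± 2.5 in control mice (exact permutation p = 0.514). This sum leaves out the Rmrp fragments above, which are annotated as piRNA. The 14 members that share bases with ribozyme fragments summed to 20.4 ± 7.92 and 52.8 ± 23.4 RPM (exact permutation p = 0.0571).

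The next by p in that direction were a 30 nt fragment that starts with C and shares sequence with snoRNA, the guides of RNA modification, and a 32 nt fragment that starts with C and shares sequence with tRNA. The first had 2.42, 2.40, 4.61 and 1.81 RPM in activated and 5.07, 3.55, 10.3 and 6.34 RPM in control mice, a log2 fold change of −1.18 ± 0.45 (edgeR adjusted p = 0.627) with overlap of groups. The second had 2.08, 3.54, 2.91 and 1.28 RPM against 5.23, 4.11, 8.71 and 3.21 RPM, a log2 fold change of −1.08 ± 0.42 (edgeR adjusted p = 0.631). Its groups did not overlap on the TMM scale, though by RPM activated 2 lay above control 4.

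Of the higher fragments, that of smallest p was 30 nt long with T first, at 4.70, 5.60, 6.17 and 4.57 RPM in activated and 2.01, 2.59, 3.23 and 2.02 RPM in control mice. All activated values lay above all control values. The log2 fold change was 1.09 ± 0.31 (edgeR adjusted p = 0.344). DESeq2 gave an adjusted p of 0.034, with a shrunken log2 fold change of 0.87 that missed the minimum of 1. The next was a 29 nt fragment with 3.29 to 4.90 RPM in activated and 1.18 to 2.94 RPM in control mice (log2 fold change 1.07 ± 0.37, edgeR adjusted p = 0.540). Another of 29 nt had 6.70 to 9.49 and 3.90 to 4.89 RPM (0.84 ± 0.29, edgeR adjusted p = 0.540). None of these 3 matched a GENCODE transcript, and their sequences are not given.

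None of the most abundant members was called. The leading fragment of 29 nt had 84.7, 105, 83.6 and 96.7 RPM in activated and 84.2, 95.9, 84.5 and 58.8 RPM in control mice, with overlapping groups and a log2 fold change of 0.20 ± 0.24 (edgeR adjusted p = 0.986). The 31 nt fragment in second place had 88.7, 89.2, 94.5 and 69.6 RPM against 63.5, 86.7, 53.7 and 43.1 RPM, a log2 fold change of 0.47 ± 0.28 (edgeR adjusted p = 0.864). Apart from the Rmrp fragment, the other members among the 10 most abundant had log2 fold changes from −0.21 ± 0.31 to 0.60 ± 0.36 (edgeR adjusted p of 0.879 to 0.986). Of the Gm49794 ladder, the 29 nt form had 16.4 to 23.0 RPM in activated and 6.99 to 18.8 RPM in control mice, and the log2 fold changes were 0.63 ± 0.36, 0.84 ± 0.37 and 0.74 ± 0.40 for the forms of 29, 30 and 31 nt (edgeR adjusted p of 0.852, 0.691 and 0.824).

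In all, 698 members (0.328%) shared their bases 3 to 22 with annotated structural RNA. They held 0.994% of reads and opened with T in only 23.1% of reads, against 87.5% in the other members. Their sum was 139, 126, 175 and 126 RPM in activated and 155, 157, 244 and 198 RPM in control mice, means of 141 ± 23.3 and 189 ± 41.8 (ratio 0.749, exact permutation p = 0.114). The classes did not share 1 direction. The ratio was 0.386 for the 14 members that share bases with ribozyme fragments (exact permutation p = 0.0571), 0.670 for snoRNA, 0.815 for tRNA and 0.848 for snRNA (exact p of 0.143, 0.143 and 0.286). It was 1.08 for rRNA (0.954 without activated 3) and 1.28 for miRNA (exact p of 0.686 and 0.314). Y RNA and miscellaneous RNA were taken as 1 class, with 308 members the largest. Its ratio was 1.30 (exact p = 0.314). All fragments of the library annotated as these classes were also summed, without the members, which are annotated as piRNA. The ratio was 0.622 for snoRNA, 0.824 for tRNA, 0.941 for snRNA, 0.897 for rRNA, 1.02 for miRNA and 0.870 for ribozyme. For Y RNA and miscellaneous RNA it was 0.786, on the other side of 1 from the members of that class. Exact permutation p was 0.0571 for that class and 0.143 to 0.886 for the others. The summed level without the 698 members had a ratio of 1.33 (exact permutation p = 0.0571).

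Summing forms did not add calls. Of 361 families tested with edgeR, 0 were called higher, against 0.41% of all features, and 0 lower, against 0%. Without adjustment, p was under 0.05 for 12 families on the higher side (3.32%, against 3.4% of all features). On the lower side there were 3 (0.831%, against 3.77% of all features). DESeq2 called 0, against 1.6% higher and 0.386% lower of all features. The fold change was positive for 328 of 361 families (90.9%, median 0.37), against 56.5% and 0.08 over all features. Families come from the same 8 libraries and are not independent of each other. On the TMM scale, groups did not overlap for 23 higher families (6.37%, against 2.44% of all features) and for 0 lower (against 1.97%). The 2 largest families gave log2 fold changes of 0.20 ± 0.24 and 0.44 ± 0.27, and the Rmrp family −1.43 ± 0.47 (edgeR adjusted p of 0.986, 0.870 and 0.486).

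Summed by host gene and strand, 75 sums from 68 genes reached the minimum, and edgeR called 0 higher, against 0.412% of all features, and 0 lower, against 0%. Without adjustment, p was under 0.05 for 5 of the 75 sums on the higher side and 1 on the lower. Of all features, 3.46% and 3.8% had such a p. DESeq2 called 0 sums, against 1.6% higher and 0.379% lower of all features. The fold change was positive for 72 of 75 sums (96.0%, median 0.41), against 56.3% and 0.08 over all features. These sums come from the same 8 libraries and are not independent of each other. Groups did not overlap for 8 of the 75 that were higher and 0 that were lower, beside 2.46% higher and 1.99% lower of all features. The 3 negative sums were Rmrp, Akap12 (−0.17 ± 0.34, with a ratio of mean RPM that turned from 0.895 to 1.04 without control 1) and Rpl13 (−0.71 ± 0.44), the last a ribosomal protein gene, named here after their values were seen.

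Gm49794 had 138, 142, 142 and 114 RPM in activated and 88.8, 136, 87.2 and 73.2 RPM in control mice. Only control 2 reached into the range of the activated mice. The log2 fold change was 0.46 ± 0.27 (edgeR adjusted p = 0.857). Gm5878 gave 0.42 ± 0.26, Gm21388 0.27 ± 0.26, 1700001L05Rik 0.39 ± 0.25, Tbl2 0.38 ± 0.27 and Cbl 0.34 ± 0.28 (edgeR adjusted p of 0.878 to 0.987). The sum of smallest p was D10Wsu102e at 0.96 ± 0.30 (edgeR adjusted p = 0.444), with non-overlapping groups, and Ago2 stood at 0.72 ± 0.29 (edgeR adjusted p = 0.640). Both strands of CT025671.4 had positive values, 0.35 ± 0.24 antisense and 0.24 ± 0.28 sense (edgeR adjusted p of 0.934 and 0.987).

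Mice resembled each other within groups about as much as between them. Over the 249 tested members, Pearson's r of log2(CPM + 1) had a median of 0.83 within activated, 0.80 within control and 0.78 between groups, with ranges of 0.77 to 0.86, 0.78 to 0.84 and 0.70 to 0.89. These correlations run across fragments, which share library and depth and are not independent.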

How the data were processed

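Sperm small RNA of 4 activated and 4 control mice was analysed, grouped by the deposited labels, 1 library a mouse. The authors made libraries from 100 ng of RNA (NEXTFLEX, 50 bp single reads), ran SPORTS1.1 at default settings on reads of 15 to 45 bp without removing duplicates, and matched with 0 mismatches to mm10 and then to RNA databases that include piRBase. They deposited counts, the raw reads of each distinct fragment. With 0 mismatches allowed, a fragment with a sequencing error or a base added at its end is in general not counted as genome-matched. Depth was 9297271 to 23123740 reads, and as reads carry no molecular identifiers the error given is the spread between mice. Members, lists and host gene sums were chosen with earlier results of these data known.

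RPM is reads per 1000000 of all reads of a library. Sums and shares were compared by exact permutation over the 70 assignments, paired shares by exact sign flips. Fragments, families (first 24 bases) and host gene sums with at least 50 reads in at least 4 mice were tested together with all other fragments in edgeR 4.0.16 (TMM, quasi-likelihood) and DESeq2 1.42.0 with apeglm 1.24.0, with Benjamini-Hochberg adjustment. A call needed a log2 fold change beyond 1 in size with an adjusted p below 0.05. The steps were tested on simulated data. Members were placed by exact match to GENCODE M21 transcripts. Named fragments are the 10 most abundant, the most abundant of each length, the 3 of smallest p in each direction and the 5 largest families; host genes, pairs and structural RNA classes were added after the values were seen. Sequences are printed only where a transcript placed them, and some fragments are not reported here. R 4.3.3, Python 3.11.15, numpy 2.4.6, pandas 2.3.3, scipy 1.17.1 and matplotlib 3.10.9 were used.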

Additional observations from a re-analysis of the deposited data

Results flagged for a closer look

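In 142 groups of 4 values, 12 had 1 mouse far from the other 3 (Dixon's criterion at 95%). Chance alone gives about 1 in 20 of independent groups. These groups are not independent, since many are sums over the same reads of the same libraries. Activated 4 was low in the summed level (15600 RPM, others 18638 to 18948), in members without (13518 RPM, others 16214 to 16482) and with a transcript match (2082 RPM, others 2419 to 2467), in the second largest family (77.3 RPM, others 102 to 107), in Gm49794 (114 RPM, others 138 to 142) and in distinct members at equal depth (38628, others 45111 to 46230). Activated 1 was high in A at position 10 (36.5%, others 35.7% to 35.8%). Control 2 was high in Tbl2 (55.8 RPM, others 35.8 to 37.9).

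Among the marker miRNAs, activated 1 was high for erythrocytes (298 RPM, others 83.5 to 113) and epithelium (3476 RPM, others 1085 to 1196), and control 4 for epithelium (19420 RPM, others 1364 to 2733) and muscle and vessel (36491 RPM, others 255 to 445).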

How the results depend on the processing

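The ratio of summed levels, 1.32, stayed above 1 under every alternative run, from 1.05 with all genome-matched piRNA reads as denominator (exact permutation p = 0.657) to 1.46 without control replicate 2 (exact p = 0.0286); leaving out single mice gave 1.23 to 1.46. At 33 nt the first of these gave 0.973. The ratio of T shares, 1.01, was 0.998 when distinct sequences were counted (0.998 at 29 nt, 0.995 at 30 nt), 0.997 at 33 nt without the 10 most abundant, and 1.01 without single mice in turn, with exact p = 0.0286 without control 2. The ratio for A at position 10, 1.001, was 0.999 for distinct sequences, 0.994 without the 10 most abundant, 0.996 without the members like structural RNA, 0.999 within the libraries of high mitochondrial rRNA share, and 0.996 to 1.01 without single mice. The ratio of long over short piRNA, 0.988 between groups, was 1.04 within the libraries of low mitochondrial rRNA share and 0.935 to 1.04 without single mice. The ratio for the share of the top 10, 0.855, was 0.901 for the top 100 (exact p = 0.0286). It was 0.828 to 0.887 without single mice, with exact p = 0.0286 at 0.828. The ratio for distinct members, 1.12, was 1.01 and 1.25 within the libraries of low and high mitochondrial rRNA share and 1.09 to 1.17 without single mice. The cause was not tested.

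For fragments and for host gene sums, edgeR called 0 members under every setting but one. With at least 1 read in at least 4 mice it called 2, both 29 nt fragments with T first, of which one had 6, 11, 16 and 4 reads in activated and 0 in control mice and the other 0 in activated and 10, 1, 6 and 13 in control mice. Each could reach this limit only through the group in which it was read, so the difference is set by the limit. Families gave 0 under every setting. The same replicate numbers do not pair the mice: correlations of same-numbered mice were −0.64, −0.50, 0.58 and 0.48, and not every mouse correlated best with its own number. The sign followed the mitochondrial rRNA set. Activated and control mice of the same set correlated at 0.47 to 0.65, and those of different sets at −0.64 to −0.48. With a replicate block the summed level kept its ratio (exact sign-flip permutation p = 0.125, the smallest 4 pairs allow), and 0 fragments, families and host gene sums were called (smallest adjusted p of 0.792, 0.707 and 0.849 in edgeR). Depth limits the test of single fragments to 249 of 212673 members. Of 57 named fragments, families, classes and host sums, the 31 nt Rmrp form was the one that leaving out control 4, an alternative chosen after seeing the data, moved most (1.53 times).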
